A study of Homo sapiens with 19 samples.

Results

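The genes described here are 10 members of the bone morphogenetic protein (BMP) pathway: the ligands BMP2, BMP4 and BMP7, the receptors BMPR1A and BMPR2, the target genes ID1, ID2 and ID3, and the inhibitory SMADs SMAD6 and SMAD7. They were taken by symbol from 3 gene tables. All 10 were found in each table, with 60612 gene IDs for HCT116, 63086 for WiDr and 82890 for the full-length reads. They were chosen because of their changes with the inhibitors in these same libraries, so their changes against DMSO are given as a description. Where such changes are counted past a threshold, the count stands beside that of all genes and nothing is read from it.

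HCT116 and WiDr are established human colorectal carcinoma cell lines, and WiDr is related to HT-29. HCT116 cells received GSK025 (GSK3235025, an inhibitor of the arginine methyltransferase PRMT5) at 10 µM, GSK715 (GSK3368715, which the labels call a PRMT1 inhibitor and which acts on type I arginine methyltransferases) at 5 µM, or the vehicle DMSO, and each group has 3 short-read libraries. WiDr cells received 5 µM GSK715 or DMSO, with 3 short-read libraries per group and 2 full-length cDNA libraries per group read on an Oxford Nanopore (ONT) instrument. All 19 libraries were made after 96 h, the labels give no genotype beyond the line, and GSK025 was given to HCT116 only. The inhibitors act on enzymes, so the transcript levels of PRMT1 and PRMT5 do not check the labels.

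BMP ligands are secreted dimers that bring type I receptors such as BMPR1A together with the type II receptor BMPR2. The type I receptor phosphorylates SMAD1, SMAD5 and SMAD9, which join SMAD4 and switch on genes in the nucleus. The ID genes are among the most direct targets; their proteins hold back differentiation factors of the basic helix-loop-helix (bHLH) class by binding their partners. SMAD6 and SMAD7 are also induced by the pathway and inhibit it, and both are known substrates of PRMT1. In the colon, BMP signalling is strongest in the differentiated upper crypt and is damped by antagonists at the stem cell zone.

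The results turn on the 3 ID genes, and above all on ID1, which was lower with GSK715 in WiDr while ID2 was higher. The 250 bases before their transcription starts, from RefSeq (GRCh38.p14, 5′ to 3′ on the gene's strand), are shown for reference, at chr20:31605039-31605288 on the plus strand for ID1, chr2:8681806-8682055 on the plus strand for ID2 and chr1:23559502-23559751 on the minus strand for ID3. These RefSeq starts are not the ends of the GENCODE 29 gene spans given below. By those spans the ID2 and ID3 windows lie within the gene, and the ID1 window runs into its first bases. Part of the printed bases may therefore be transcribed. Capitals mark the CCAAT box (read as ATTGG when it lies on the other strand). They also mark the TATA element TATAA, read as TTATA on the other strand, and the SMAD element CAGAC. At 1 place in the ID1 sequence, matches to the TATA element on both strands overlap.
ID1: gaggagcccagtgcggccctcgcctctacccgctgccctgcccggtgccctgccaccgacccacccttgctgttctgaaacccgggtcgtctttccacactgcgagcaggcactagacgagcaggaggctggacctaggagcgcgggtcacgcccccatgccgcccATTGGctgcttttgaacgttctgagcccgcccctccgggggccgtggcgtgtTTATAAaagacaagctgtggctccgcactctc
ID2: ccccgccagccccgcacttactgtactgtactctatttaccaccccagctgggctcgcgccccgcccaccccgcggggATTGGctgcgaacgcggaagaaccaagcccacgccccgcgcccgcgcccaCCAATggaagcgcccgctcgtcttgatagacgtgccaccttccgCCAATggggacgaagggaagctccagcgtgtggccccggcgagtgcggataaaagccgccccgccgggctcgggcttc
ID3: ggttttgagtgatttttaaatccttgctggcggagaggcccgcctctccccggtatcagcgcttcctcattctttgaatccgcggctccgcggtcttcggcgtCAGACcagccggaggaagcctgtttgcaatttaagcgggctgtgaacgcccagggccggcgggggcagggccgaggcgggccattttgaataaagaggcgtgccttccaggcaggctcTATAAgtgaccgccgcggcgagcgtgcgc
The sequence of ID1 holds 1 CCAAT box, on the reverse strand with its first printed base 84 bases before the start, and TATAA on both strands, at 32 and 31 bases before it. The sequence of ID2 holds 3 CCAAT boxes and no TATAA. The sequence of ID3 holds TATAA 29 bases before the start and CAGAC at 147, with no CCAAT. The SMAD1 and SMAD5 motif GGCGCC, which is its own reverse complement, is in none of these 3 windows. Sites further than 250 bases before the start were not looked for, so the genes may hold the motif elsewhere. Among 35116 RefSeq promoter windows of the same length, 32.0% hold CCAAT, 18.9% hold TATAA, 38.0% hold CAGAC or its reverse complement GTCTG, and 16.4% hold GGCGCC. These motifs were chosen with the changes of the genes known, and a match describes the letters only. Promoter entries matched 8 of the 10 genes, all but BMP2 and BMP7.

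Each HCT116 library held 64.6 to 66.9 M counts (M is 1e6), each WiDr short-read library 59.6 to 82.4 M, and each ONT library only 1.45 to 1.67 M. Levels are counts per 1e6 counts scaled by TMM (CPM), and changes are log2 fold changes with an approximate standard error (SE). EPCAM, CDH1, KRT8 and KRT18 (16.3% of its exon bases lie opposite KRT8), which mark epithelium, were present throughout, whereas LGALS4 and VIL1 (44% opposite USP37) stayed at or below 0.679 CPM in every HCT116 library and CDX2 at or below 1.84 CPM in every WiDr library. The summed level of the 8 epithelial markers was 5520 to 5816 CPM with GSK025, 4669 to 4970 with GSK715 and 3126 to 3186 with DMSO in HCT116, and 21246 to 21676 CPM with GSK715 against 15169 to 15394 with DMSO in WiDr short reads. The 8 stromal, endothelial and immune markers summed to 15.4 to 19.8, 21.2 to 26.2 and 16.4 to 18.9 CPM in the same 3 HCT116 groups, and to 16.2 to 18.5 CPM against 11.5 to 12.4 CPM in WiDr. COL1A1 made up most of that sum, and PTPRC, the pan-leukocyte marker, was at 0 in every HCT116 library. Mitochondrially encoded genes took 5.13% to 5.48% of counts with GSK025, 5.09% to 5.42% with GSK715 and 8.64% to 9.09% with DMSO in HCT116, and 8.30% to 8.83% with GSK715 against 6.07% to 6.49% with DMSO in WiDr. Leaving the mitochondrially encoded genes out of the fits moved the log2 fold change of the median gene little. It moved by 0.000257 for GSK025 and 0.000661 for GSK715 in HCT116, by -0.00552 in WiDr short reads and by 0.0349 between lines. Any other part of these shifts in the results was not tested.

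Before any inhibitor, the lines differed in which of the 10 genes they carried. With DMSO and per kilobase of annotated exon, ID1 was the most abundant of the 10 in both lines, at 162 ± 3.1 CPM per kb in HCT116 and 311 ± 7.4 in WiDr (SD, n = 3 each). ID3 came next in HCT116 at 41.8 ± 0.75 CPM per kb, followed by ID2 at 33.6 ± 0.14 and BMP4 at 23.2 ± 0.96, and none of these 4 ranges overlapped. In WiDr, BMP4 came next at 63.0 ± 2.8 CPM per kb, then SMAD6 at 11.98 ± 0.12, SMAD7 at 8.80 ± 0.22 and ID2 at 6.42 ± 0.47. ID3 was the lowest of the 10 in WiDr, at 0.109 ± 0.12 CPM per kb, and BMP2 the lowest in HCT116, at 0.104 ± 0.037. BMPR1A and BMPR2 lay close together in HCT116, at 2.97 ± 0.14 and 3.18 ± 0.16 CPM per kb, a gap about the size of their spread. These levels come from a separate table for each line, and no test was made between lines with DMSO.

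**Figure D1:**
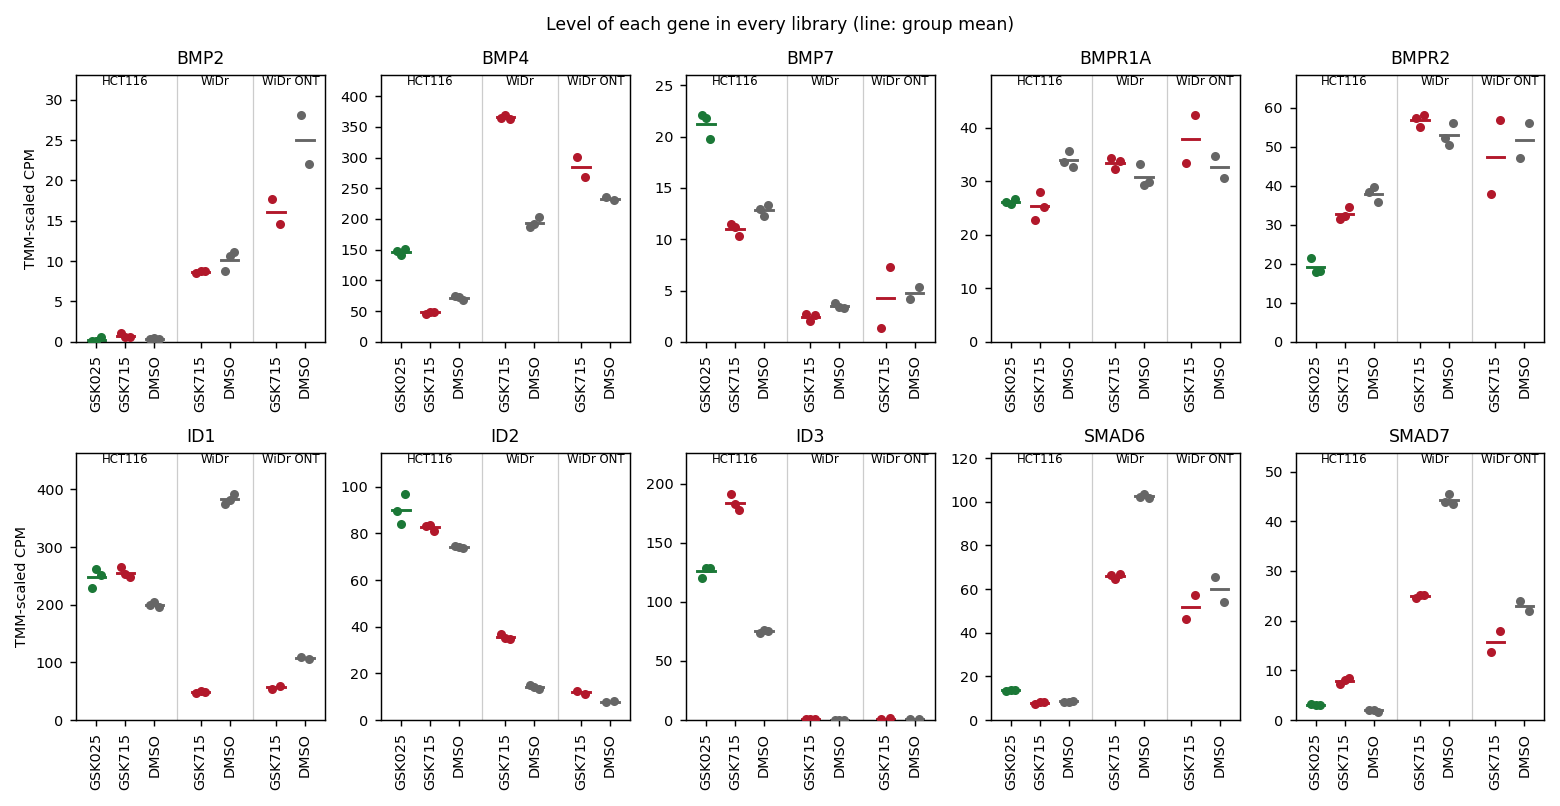
Level of each of the 10 genes in every library, in TMM-scaled CPM on a linear axis from 0, with 1 point per library and a line at the group mean. ID1 lies at 229 to 266 CPM with either inhibitor and at 196 to 204 CPM with DMSO in HCT116, but at 47.4 to 50.02 CPM with GSK715 against 375 to 393 CPM with DMSO in WiDr short reads.

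BMP4, the most abundant of the 3 ligands (ENSG00000125378, GRCh38 chr14:53949736-53958761, minus strand), went in opposite directions with the 2 inhibitors and in the 2 lines. In HCT116 it had 148, 141 and 151 CPM with GSK025, 46.0, 48.8 and 48.8 CPM with GSK715, and 73.9, 72.6 and 68.2 CPM with DMSO. The 3 groups did not overlap, with GSK025 highest and GSK715 lowest. The log2 fold change against DMSO was 1.03 (SE 0.049) for GSK025 and -0.58 (SE 0.049) for GSK715. The short reads of WiDr gave BMP4 364, 369 and 363 CPM with GSK715, against 187, 191 and 204 CPM with DMSO. That is a log2 fold change of 0.91 (SE 0.035), so GSK715 libraries were above DMSO libraries in WiDr and below them in HCT116. In bulk RNA, a change in the share of cells that express a gene and a change in RNA per cell cannot be told apart.

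BMP7 (ENSG00000101144, chr20:57168748-57266629, minus strand), a ligand that can pair with BMP2 or BMP4 in heterodimers, had 22.1, 21.9 and 19.7 CPM with GSK025, 11.5, 11.2 and 10.3 CPM with GSK715 and 13.0, 12.2 and 13.4 CPM with DMSO in HCT116. As with BMP4, the GSK025 libraries were highest and the GSK715 libraries lowest, at log2 fold changes of 0.72 (SE 0.091) and -0.23 (SE 0.091). BMP7 was weaker in WiDr short reads, with 2.70, 1.99 and 2.63 CPM with GSK715 against 3.77, 3.40 and 3.34 CPM with DMSO, a log2 fold change of -0.52 (SE 0.19). BMP2 (ENSG00000125845, chr20:6767664-6780280, plus strand), the ligand closest to BMP4 in sequence, was near the limit of detection in HCT116. It had 0.0449, 0.0614 and 0.536 CPM with GSK025, 1.03, 0.615 and 0.562 CPM with GSK715, and 0.289, 0.527 and 0.306 CPM with DMSO. The third GSK025 library stood apart from the other 2, and its 35 counts compare with 3 and 4. Without that library the log2 fold change of BMP2 for GSK025 was -2.77, against -0.80 (SE 0.83) with all libraries. BMP2 was clearly present in WiDr short reads, with 8.56, 8.81 and 8.73 CPM with GSK715 against 8.81, 10.7 and 11.1 CPM with DMSO, and the log2 fold change was -0.23 (SE 0.11).

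The receptors were lower with both inhibitors in HCT116 and changed little in WiDr. BMPR1A (ENSG00000107779, chr10:86756601-86932838, plus strand), the type I receptor that binds BMP2 and BMP4, had 26.1, 25.7 and 26.7 CPM with GSK025, 22.7, 27.9 and 25.2 CPM with GSK715 and 33.6, 35.6 and 32.6 CPM with DMSO in HCT116. Both inhibitor groups lay below the DMSO libraries and overlapped each other, at log2 fold changes of -0.37 and -0.42 (SE 0.078 each). BMPR2 (ENSG00000204217, chr2:202376936-202567751, plus strand), the type II receptor, had 21.5, 17.9 and 18.2 CPM with GSK025, 31.4, 32.3 and 34.4 CPM with GSK715 and 38.3, 39.6 and 35.8 CPM with DMSO. The GSK025 libraries were the lowest, at a log2 fold change of -0.98 (SE 0.081), against -0.21 (SE 0.080) for GSK715. In WiDr short reads the groups overlapped for both receptors. BMPR1A had 34.3, 32.3 and 33.8 CPM with GSK715 against 33.2, 29.4 and 29.9 CPM with DMSO, and BMPR2 had 57.4, 54.9 and 58.0 CPM with GSK715 against 52.2, 50.3 and 56.1 CPM with DMSO. Their log2 fold changes were 0.12 (95% interval -0.02 to 0.26) and 0.10 (-0.01 to 0.21).

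ID1 (ENSG00000125968, chr20:31605283-31606515, plus strand) showed the widest gap of the 10 genes between the lines. In HCT116 it had 229, 262 and 251 CPM with GSK025, 266, 254 and 247 CPM with GSK715, and 199.99, 204 and 196 CPM with DMSO. Both inhibitor groups were above DMSO and overlapped each other, with log2 fold changes of 0.31 (SE 0.050) for GSK025 and 0.35 (SE 0.050) for GSK715. ID1 in WiDr short reads had 47.4, 50.02 and 48.4 CPM with GSK715, against 375, 382 and 393 CPM with DMSO. The log2 fold change was -2.98 (SE 0.035), 7.88-fold lower with GSK715.

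ID2 (ENSG00000115738, chr2:8678845-8684453, plus strand; 1.72% of its exon bases lie opposite the antisense gene ID2-AS1) was higher with GSK715 in both lines. In HCT116 it had 89.4, 83.8 and 97.0 CPM with GSK025, 83.3, 83.6 and 80.8 CPM with GSK715 and 74.4, 74.0 and 73.8 CPM with DMSO. Neither inhibitor group overlapped DMSO, at log2 fold changes of 0.28 (SE 0.053) for GSK025 and 0.16 (SE 0.053) for GSK715, the second of which was -0.0035 when libraries were scaled by their totals alone. Among WiDr short reads ID2 had 36.9, 35.0 and 34.5 CPM with GSK715 against 15.2, 14.1 and 13.2 CPM with DMSO, a log2 fold change of 1.33 (SE 0.071). WiDr thus had ID2 2.51-fold higher in the same libraries in which ID1 was lower.

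ID3 (ENSG00000117318, chr1:23557918-23559794, minus strand) had 121, 129 and 128 CPM with GSK025, 192, 182 and 177 CPM with GSK715 and 73.9, 76.6 and 75.1 CPM with DMSO in HCT116. The groups did not overlap, GSK715 was highest, and the log2 fold changes were 0.74 (SE 0.045) for GSK025 and 1.29 (SE 0.045) for GSK715. ID3 was barely present in WiDr short reads, with 0.953, 0.692 and 1.197 CPM with GSK715 against 0, 0.437 and 0.152 CPM with DMSO. These values stand for 65, 47 and 75 counts with GSK715 and 0, 27 and 12 with DMSO. The log2 fold change of 2.26 (SE 0.84) moved between 1.69 and 3.496 as single libraries were left out, and was highest without the second DMSO library.

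SMAD7 (ENSG00000101665, chr18:48919853-48952052, minus strand), which blocks both BMP and TGF-beta receptors, had 3.18, 3.09 and 3.09 CPM with GSK025, 7.26, 8.11 and 8.47 CPM with GSK715 and 1.95, 2.12 and 1.71 CPM with DMSO in HCT116. Both inhibitors were above DMSO, at log2 fold changes of 0.69 (SE 0.17) for GSK025 and 2.04 (SE 0.17) for GSK715, the second 4.12-fold higher. In WiDr short reads it was lower with GSK715, with 24.6, 25.3 and 25.2 CPM against 43.9, 45.6 and 43.5 CPM with DMSO, a log2 fold change of -0.82 (SE 0.051). SMAD6 (ENSG00000137834, chr15:66702228-66782848, plus strand), which acts mainly against BMP receptors and SMAD1, had 13.4, 13.9 and 13.7 CPM with GSK025, 7.38, 8.22 and 8.26 CPM with GSK715 and 8.47, 8.47 and 8.79 CPM with DMSO in HCT116. It was higher with GSK025, at a log2 fold change of 0.67 (SE 0.10), and close to DMSO with GSK715, at -0.11 (95% interval -0.33 to 0.11). WiDr short reads had SMAD6 at 66.6, 64.7 and 67.0 CPM with GSK715 against 102, 104 and 102 CPM with DMSO, a log2 fold change of -0.63 (SE 0.031). Both inhibitory SMADs were therefore lower with GSK715 in WiDr, while in HCT116 the same compound had SMAD7 higher and SMAD6 little changed.

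**Figure D2:**
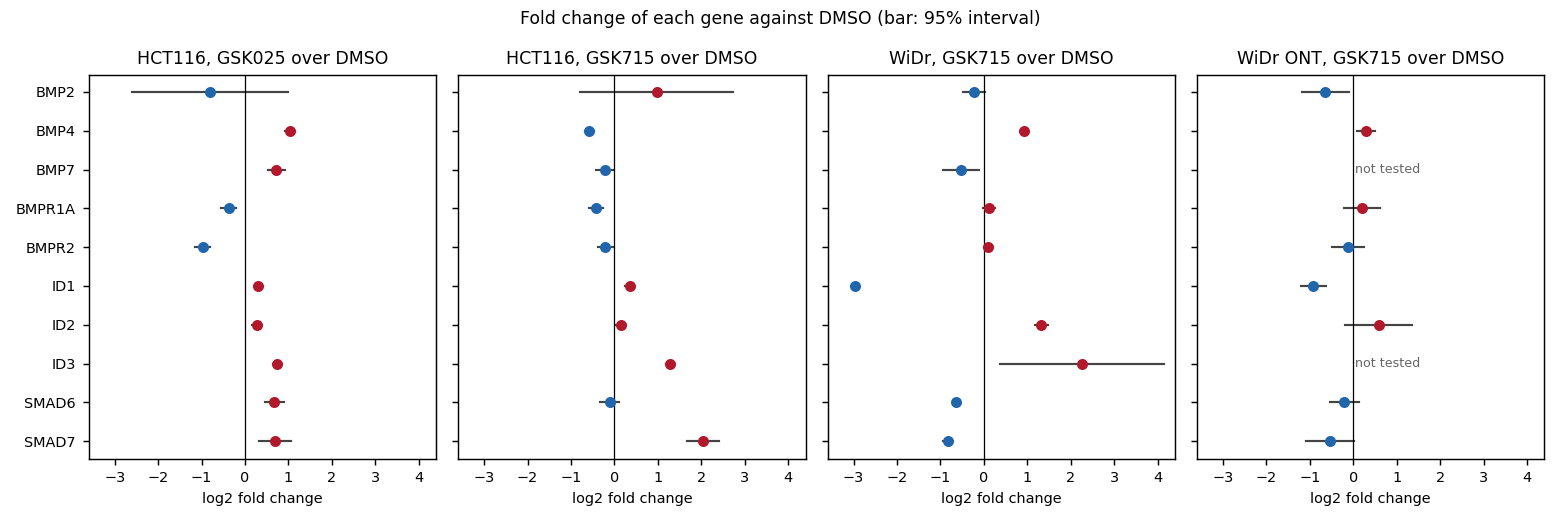
Log2 fold change of each of the 10 genes against DMSO in the 4 comparisons, with bars for the 95% interval (red above 0, blue below). ID1 stands at 0.31 and 0.35 in HCT116 and at -2.98 in WiDr, and BMP4 at 1.03 with GSK025 and -0.58 with GSK715 in HCT116 and 0.91 in WiDr.

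Of the 10 genes, 7 were higher and 2 lower with GSK025 in HCT116 at an adjusted p under 0.05 (edgeR, quasi-likelihood), where 44.1% of all 19751 genes tested passed. With GSK715 in HCT116, 4 were higher and 3 lower (46.4% of all genes passed), and in WiDr short reads 3 were higher and 4 lower (65.8% of 19340 genes). Groups did not overlap for 9, 10 and 7 of the 10 genes in these 3 comparisons, where that held for 54.8%, 57% and 72.2% of all genes. Both inhibitors moved a large part of the transcriptome, and since the genes were chosen on these comparisons nothing is read from the counts. In WiDr, ID3 passed the filter on low counts through its GSK715 libraries, the group in which it is high, so its place among the 3 higher genes follows in part from its change. The counts also rest on single libraries. With GSK715 in HCT116, BMPR2 and ID2 each left the count when the first or second library of either group was left out, and ID2 also without the third DMSO library. In WiDr, BMP7 left it without any 1 DMSO library or the second GSK715 library, and ID3 without any 1 GSK715 library or the third DMSO library. In HCT116 the comparisons share the DMSO libraries, as GSK025 and GSK715 were set against the same 3.

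The inhibitors were compared directly in HCT116, GSK715 over GSK025, at the single dose of each, which differ. This comparison and the 2 that follow use the libraries on which the genes were chosen, so their p-values, adjusted over all genes tested, are not independent evidence. Of the 10 genes, 3 were higher and 3 lower with GSK715 (44.3% of all genes passed), and 8 had groups that did not overlap (53% of all genes). BMP4 was 3.06-fold lower with GSK715 than with GSK025, at a log2 difference of -1.61 (SE 0.050, edgeR adjusted p = 1.2e-10), and BMP7 at -0.95 (SE 0.092, edgeR adjusted p = 2.64e-06). SMAD6 was lower as well, at -0.78 (SE 0.10, adjusted p = 4.03e-05). SMAD7 was higher at 1.35 (SE 0.17, adjusted p = 2.2e-05), and BMPR2 and ID3 were higher at 0.76 (SE 0.081) and 0.54 (SE 0.045). The other 4 did not pass. For ID1 the difference was 0.05 with a 95% interval of -0.06 to 0.15, for ID2 -0.13 (-0.24 to -0.01), for BMPR1A -0.05 (-0.22 to 0.12) and for BMP2 1.77 (-0.04 to 3.59). The ID2 difference passed at -0.22 (adjusted p = 0.00408) with library totals alone and at -0.18 (adjusted p = 0.019) without the second GSK025 library. Without the third GSK025 library the BMP2 difference was 3.75 (adjusted p = 0.00211). The direction for ID1 turned to -0.045 when libraries were scaled by their totals alone.

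The response to GSK715 was then compared between the lines, WiDr minus HCT116, in 1 fit over both tables with an interaction of line and compound. Line and count table coincide, so a difference between lines and one between tables cannot be told apart. Of the 10 genes, 4 had a higher and 4 a lower response in WiDr (46.7% of 21791 genes passed). The differences ran furthest for ID1, at -3.40 (SE 0.051, edgeR adjusted p = 4.28e-14), and for SMAD7, at -2.94 (SE 0.13, adjusted p = 6.47e-10). SMAD6 differed by -0.60 (SE 0.068) and BMP2 by -1.27 (SE 0.37, adjusted p = 0.0125). BMP4 and ID2 had the higher response in WiDr, by 1.42 (SE 0.061, adjusted p = 6.4e-10) and 1.10 (SE 0.069, adjusted p = 2.47e-08), and the receptors BMPR1A and BMPR2 by 0.47 (SE 0.11) and 0.24 (SE 0.082). BMP7 and ID3 did not pass, with 95% intervals of -0.79 to 0.06 and -0.19 to 1.99. The BMP2 difference was -0.91 (adjusted p = 0.0558) with library totals alone, and that of BMPR2 was 0.23 (adjusted p = 0.0663) with no filter on low counts. For ID3 the difference was 2.09 (adjusted p = 0.00571) without the second WiDr DMSO library, in which 27 of the group's counts lay.

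**Figure D3:**
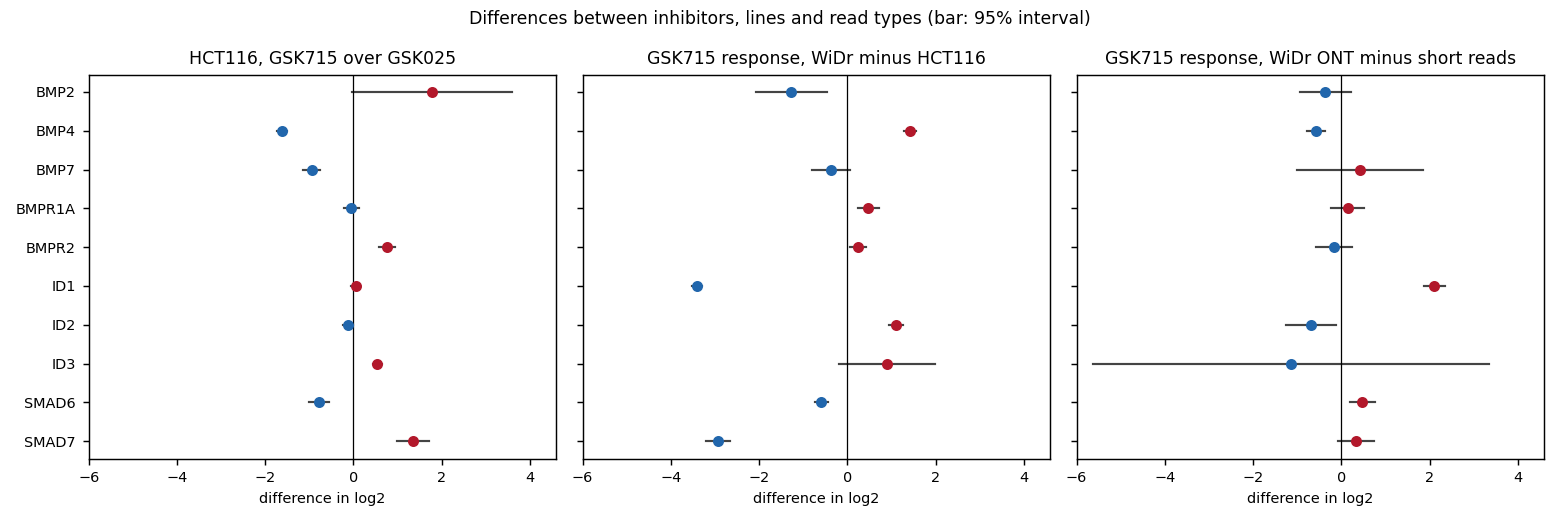
Differences in log2 between the inhibitors in HCT116 (GSK715 over GSK025), between lines (WiDr minus HCT116) and between read types (ONT minus short reads), with bars for the 95% interval (red above 0, blue below). ID1 is near 0 between inhibitors, at -3.40 between lines and at 2.11 between read types.

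The ONT libraries of WiDr hold far fewer counts, and 8 of the 10 genes passed the filter on low counts. ID1 had 54.3 and 59.5 CPM with GSK715 against 109.9 and 105 CPM with DMSO, so both GSK715 libraries were below both DMSO libraries, at a log2 fold change of -0.92 (SE 0.14). BMP4 had 301 and 268 CPM with GSK715 against 235 and 231 CPM with DMSO, at 0.29 (SE 0.10). ID2 had 12.4 and 11.2 CPM with GSK715 against 7.77 and 7.998 CPM with DMSO, at 0.58 (SE 0.39). These 3 genes had the direction of the short reads and groups that did not overlap. SMAD7 had 13.7 and 17.8 CPM with GSK715 against 23.9 and 21.99 CPM with DMSO (log2 fold change -0.54, SE 0.27), and BMP2 had 17.7 and 14.5 CPM against 28.1 and 21.99 CPM (-0.64, SE 0.27). SMAD6 had 46.4 and 57.5 CPM with GSK715 against 65.7 and 54.0 CPM with DMSO, and these overlapped, as did BMPR1A (33.4 and 42.3 against 34.6 and 30.7 CPM) and BMPR2 (37.9 and 56.8 against 47.2 and 56.0 CPM). BMP7 and ID3 were not tested: BMP7 had 1.31 and 7.27 CPM with GSK715 against 4.18 and 5.33 CPM with DMSO, and ID3 had 0.654 and 1.98 CPM, or 1 and 3 counts, against 0.597 and 0.666 CPM, or 1 count each. Of the 8, 1 was past the threshold, ID1 (8.81% of 15877 genes passed, 4.29% higher and 4.52% lower), and GSK715 and DMSO libraries of 5 of the 8 did not overlap (50.1% of genes). Without the second ONT GSK715 library the count also took in BMP4, at 0.38.

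The size of the response differed between read types for 3 of the 10 genes (19.9% of 24055 genes passed). ONT minus short reads, the difference was 2.11 for ID1 (SE 0.11, edgeR adjusted p = 1.53e-07), -0.57 for BMP4 (SE 0.090, adjusted p = 0.0006) and 0.47 for SMAD6 (SE 0.13, adjusted p = 0.0224), in each case towards a smaller change in ONT. The SMAD6 call was lost without the second ONT GSK715 library, at 0.29 (adjusted p = 0.413), without the second ONT DMSO library, at 0.34 (0.22), without the second short-read DMSO library, at 0.43 (0.0588), and with library totals alone, at 0.26 (0.265). The median gene also changed less in ONT. Among 11574 genes tested in both read types with a mean of at least 5 CPM in ONT, the 40 whose short-read change lay within 0.25 of that of ID1 had a median ONT change of -0.78, with quartiles at -1.11 and -0.36. ID1, at -0.92, lay between them. The 1114 genes within 0.25 of BMP4 had a median ONT change of 0.08 (quartiles -0.16 and 0.31), and the 0.29 of BMP4 lay between them. The 612 genes near ID2 had a median of 0.13 (quartiles -0.13 and 0.42), below the 0.58 of ID2. The 2277 genes near SMAD6 had a median of -0.09 (quartiles -0.32 and 0.10), and the -0.21 of SMAD6 lay between them. The 1733 genes near SMAD7 had a median of -0.12 (quartiles -0.36 and 0.07), and SMAD7, at -0.54, lay outside them, with a larger change than most. These windows were drawn after seeing the data and are a description. The ONT and short-read libraries differ in depth, chemistry and counting, which cannot be told apart.

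**Figure D4:**
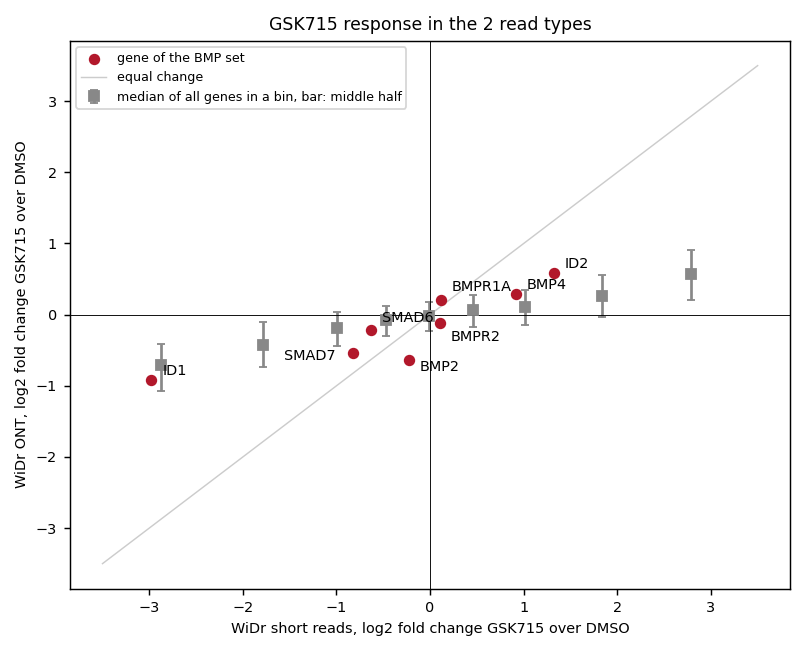
Log2 fold change of GSK715 over DMSO in WiDr, ONT against short reads, for the 8 genes tested in both (red) and for all genes in bins of their short-read change (squares at the bin's medians, bars between the quartiles). In the bin that holds ID1 the short-read median is -2.87 and the ONT median -0.71, so the squares lie flatter than the line of equal change.

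Of 56 other genes of the pathway, 42 were measured well enough to be tested in HCT116 and 36 in WiDr short reads. With GSK025 in HCT116, 11 rose and 16 fell (22% and 22.1% of all genes), with a median log2 fold change of 0.01 over those tested, against -0.02 over all genes. The homeobox genes MSX1 and MSX2, both BMP targets, rose, MSX1 to 48.0 to 55.4 CPM with GSK025 against 24.0 to 24.8 CPM with DMSO (log2 fold change 1.08, SE 0.065, edgeR adjusted p = 5.33e-08) and MSX2 by 0.61 (SE 0.078). TOB1, a negative regulator of BMP signalling in osteoblasts whose exons overlap another gene by 11.1%, rose by 0.39 (SE 0.050). All 4 of the signalling SMADs changed: SMAD5 fell to 43.0 to 46.0 CPM with GSK025, against 86.6 to 91.8 CPM with DMSO (log2 fold change -1.01, SE 0.061, adjusted p = 5.52e-08), SMAD9 and SMAD4 fell by 0.47 and 0.37, and SMAD1 rose by 0.26. The SMAD phosphatase PPM1A fell by 0.80 (SE 0.065), and SKIL, a repressor of SMAD-driven transcription, fell by 1.73 (SE 0.15), which was 3.33-fold.

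With GSK715 in HCT116, 10 of these genes rose and 13 fell (22.1% and 24.2% of all genes; 8 and 18 when libraries were scaled by totals alone), with a median of 0.01 against -0.05 over all genes. NEDD4L, a ubiquitin ligase of SMADs and receptors, rose to 159 to 172 CPM with GSK715 against 78.5 to 90.1 CPM with DMSO (log2 fold change 0.98, SE 0.055, edgeR adjusted p = 1.82e-08). The secreted BMP antagonist NBL1 rose by 0.81 (SE 0.055), as counted together with a readthrough gene that shares 15.4% of its exon bases, and MSX2 rose by 0.70 (SE 0.078). SKIL fell by 1.27 (SE 0.15), TWSG1, a ligand-binding modulator, by 0.50 (SE 0.056) and the ligand BMP8B, whose near-identical copy BMP8A makes its counts uncertain, by 0.51 (SE 0.067). All 4 signalling SMADs fell, by 0.16 for SMAD4, 0.32 for SMAD1, 0.41 for SMAD5 and 1.01 for SMAD9. GSK715 over GSK025, 13 of 42 were higher and 8 lower (21.8% and 22.5% of all genes; 11 and 10 with totals alone), with a median of 0.14 against 0.00. NEDD4L, the type II receptor ACVR2B and SMAD5 were higher with GSK715, by 0.79, 0.77 and 0.60, and CRIM1, a membrane protein that binds BMPs, MSX1 and TOB1 were lower, by -1.13, -0.52 and -0.37.

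In WiDr short reads, 13 of 36 rose and 11 fell with GSK715 (33.6% and 32.2% of all genes). With totals alone, 18 rose and 7 fell. The median log2 fold change was 0.10, against 0.05 over all genes. Among the 36, ACVRL1 (92 counts with GSK715, 4 with DMSO) and RGMA (56 and 4) passed the low-count filter through their GSK715 libraries. They are high in that group, so their place among the genes tested follows in part from their change. BAMBI, a membrane pseudoreceptor that damps BMP and TGF-beta signals and is itself a target, fell to 1.96, 2.53 and 1.95 CPM with GSK715 against 14.5, 14.1 and 15.4 CPM with DMSO (log2 fold change -2.77, SE 0.14, edgeR adjusted p = 5.41e-08). ATOH8, a bHLH gene induced by BMPs, rose to 6.08, 5.72 and 5.89 CPM with GSK715 against 0.871, 0.794 and 0.826 CPM with DMSO (2.83, SE 0.17, adjusted p = 2.04e-07). NBL1 rose by 0.92 (SE 0.052) and ENG, a co-receptor for BMP9 and BMP10, by 0.67 (SE 0.065). The ubiquitin ligase SMURF1, which shares 11.7% of its exon bases with TRRAP, fell by 0.65 (SE 0.031), and the co-receptor RGMB, with 40.2% of its exon bases shared with another gene, fell by 0.94 (SE 0.049). Of the 4 signalling SMADs, 1 was called higher, 1 lower and 2 neither, beside the shares of all genes above. With GSK715 against DMSO, SMAD9 averaged 1.14 against 0.395 CPM, SMAD5 52.0 against 61.3, SMAD1 15.3 against 16.8 and SMAD4 18.9 against 18.7.

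Between lines, 11 of 43 genes had a higher response to GSK715 in WiDr and 8 a lower one (23.2% and 23.5% of all genes; 22 and 7 with totals alone, which moves the median of all genes by 0.34), with a median difference of 0.10 against 0.12. TWSG1, BMP8B and CHRD, the extracellular BMP antagonist chordin, had the higher response, by 1.04 (SE 0.092), 2.30 (SE 0.27) and 1.83 (SE 0.23). RGMB, NEDD4L and SMURF1 had the lower, by -1.33 (SE 0.071), -1.18 (SE 0.077) and -0.63 (SE 0.049). In ONT, none of 26 genes tested passed with edgeR, where 8.81% of all genes did, and none with DESeq2. With edgeR, 1 of them had an unadjusted p under 0.05, against 21.5% of all genes. Without the second ONT GSK715 library, 1 passed. Between read types 7 of 38 differed, 4 up and 3 down (11.2% and 8.69% of all genes; 3 and 7 with totals alone), and 3 did without the second ONT GSK715 library. BAMBI, RGMB and SMURF1, lower with GSK715 in short reads, had the higher response in ONT, by 2.13 (SE 0.40), 1.03 (SE 0.19) and 0.68 (SE 0.12). In ONT, BAMBI averaged 6.24 CPM with GSK715 against 10.1 CPM with DMSO. RGMB (17.8 against 17.3 CPM) and SMURF1 (34.5 against 34.9 CPM) were close to DMSO there. NBL1, BMP8B and CHRD had the lower response in ONT, by -0.95 (SE 0.12), -2.19 (SE 0.56) and -1.27 (SE 0.40). NBL1 averaged 54.2 CPM with GSK715 against 57.3 CPM with DMSO in ONT, and BMP8B 5.59 against 7.28 CPM. Both were thus lower with GSK715 there, though higher with it in short reads (58.2 against 30.8 and 6.05 against 1.65 CPM). CHRD had 10.6 to 20.9 CPM with GSK715 against 12.5 to 12.7 CPM with DMSO in ONT, and the groups overlapped. Leaving out the first ONT GSK715 library ended the call of BAMBI (adjusted p = 0.0801), leaving out the second those of SMURF1 (0.088) and BMP8B (0.0598), and leaving out the second ONT DMSO library that of BMP8B (0.075). CHRD, at an adjusted p of 0.0423 with all libraries, kept its call only without the first ONT GSK715 library, the second short-read DMSO library or the third short-read GSK715 library, and ranged up to 0.174 without the second ONT GSK715 library. SMURF1 was at 0.46 (0.0812) with library totals alone.

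**Figure D5:**
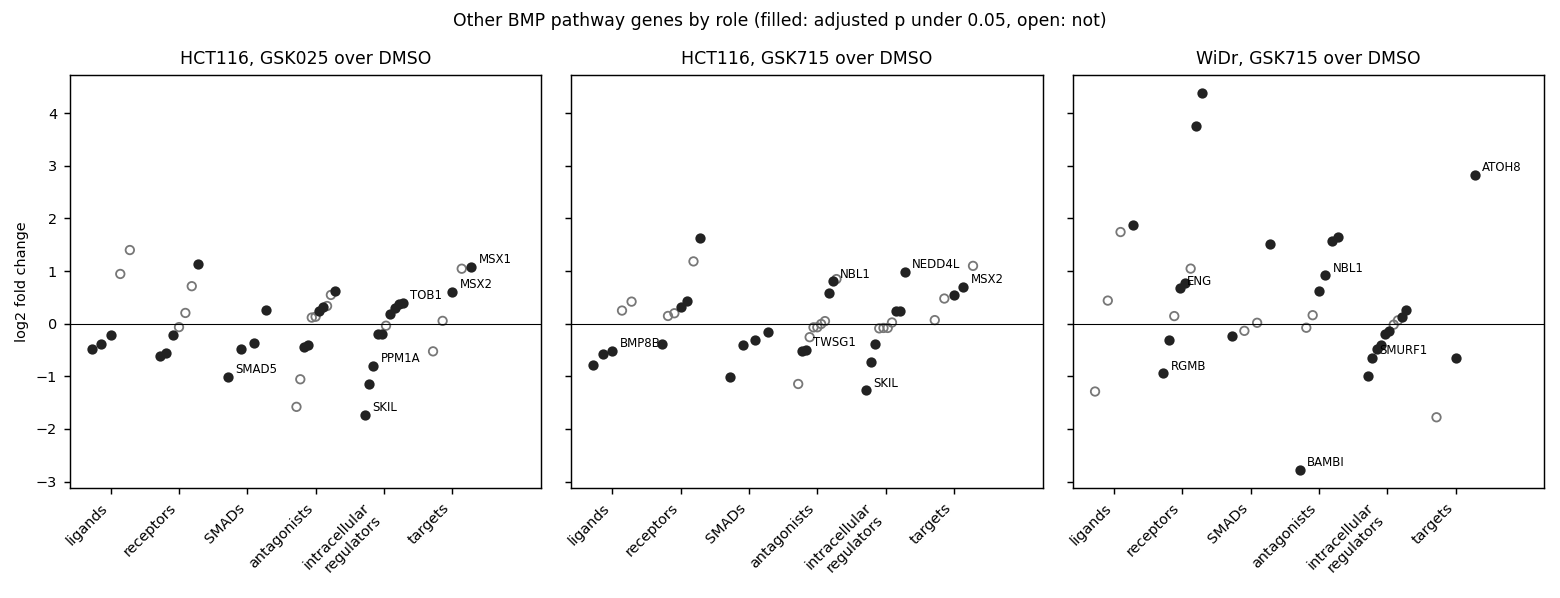
Log2 fold change of the other BMP pathway genes against DMSO, grouped by role, for both inhibitors in HCT116 and for GSK715 in WiDr short reads (filled points: adjusted p under 0.05; open points: not; names: up to 3 called genes per direction, those of lowest adjusted p). Filled points lie on both sides of 0 among the receptors, antagonists and intracellular regulators in each panel. In WiDr, BAMBI at -2.77 and ATOH8 at 2.83 lie far from the rest of their groups.

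The genes whose changes were most like those of ID1 over the 3 short-read comparisons with DMSO, among 9711 with a mean of at least 5 CPM in each short-read table, were RPH3AL, ITPKA and GLI2, at Euclidean distances of 0.24, 0.35 and 0.37 on the log2 scale. RPH3AL changed by 0.28, 0.12 and -2.99 with GSK025 in HCT116, GSK715 in HCT116 and GSK715 in WiDr. The nearest to BMP4 were TONSL, HOXA7 and SIRT3, at 0.24, 0.27 and 0.30, and TONSL changed by 1.10, -0.40 and 0.76. The likeness rests on 3 comparisons, of which 2 share their DMSO libraries.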

How the data were processed

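RNA of HCT116 and WiDr cells was sequenced in 15 short-read and 4 ONT libraries. In the deposited tables, short reads are given as whole raw counts for each gene. The deposited ONT table holds estimated counts, 15.1% of them not whole, which were rounded for the fits. The submitters' processing notes name cutadapt, HISAT2, StringTie, DESeq2, minimap2, Salmon and the build GRCh38; their versions and roles, the annotation release and the strand are not given in the sources used here. Per the labels' protocols the short-read RNA was poly(A)-enriched. The NC columns of both WiDr tables were assigned to DMSO, the only control that the labels give. Coordinates and exon lengths are from GENCODE 29. Whether replicates came from separate cultures is not stated, and p-values therefore reflect only how these libraries scatter, which may be technical; no library was a copy of another.

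Each table was fitted whole with the quasi-likelihood test of edgeR 4.0.16 (R 4.3.3), after TMM scaling and a filterByExpr step that asks for at least 10 counts and 15 in total. Adjusted p-values are Benjamini-Hochberg over all genes tested, and calls were made under 0.05. The scripts were tested on simulated data. Intervals are at the 95% level. The 10 genes, the lists of other genes and the tests were chosen with earlier results of these data known. Named beside the 10 genes are, per comparison, up to 3 called pathway genes per direction, ranked by adjusted p, with a mean of at least 1 CPM, with lists of up to 9 genes given by their members. Listed genes that share at least 10% of exon bases with another are given with that share where a value of theirs is described; genes of similar pattern were not looked up. Alternatives were RLE size factors, library totals alone, the Wald test of DESeq2 1.42.0, no filter, a replicate block, single libraries left out, no mitochondrially encoded genes, and only the groups compared.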

Additional observations from a re-analysis of the deposited data

Results flagged for a closer look

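The response to GSK715 differed between the lines by the test of the difference itself, WiDr minus HCT116 on the log2 scale, for 8 of the 10 genes and for 19 of the 43 other pathway genes tested. Of all 21791 genes tested, 46.7% passed, so neither count is read as a trait of the pathway. Among the ligands, receptors and inhibitory SMADs the differences were -1.27 for BMP2, 1.42 for BMP4, 0.47 for BMPR1A, 0.24 for BMPR2, -0.60 for SMAD6 and -2.94 for SMAD7. Among the ID genes they were -3.40 for ID1 and 1.10 for ID2. BMP2 was low in HCT116, at a mean of 0.736 CPM with GSK715 and 0.374 CPM with DMSO. Its difference was -0.91 (edgeR adjusted p = 0.0558) with library totals alone. That of BMPR2 did not pass with no filter on low counts (edgeR adjusted p = 0.0663). Among the other pathway genes, the 3 of lowest adjusted p in each direction are given, and they were 2.30 for BMP8B, 1.83 for CHRD, 1.04 for TWSG1, -1.33 for RGMB, -1.18 for NEDD4L and -0.63 for SMURF1. Of these 14 genes, 7 had GSK715 libraries on opposite sides of their DMSO libraries in the 2 lines, without overlap. These were BMP4, ID1, SMAD7, BMP8B, TWSG1, RGMB and NEDD4L. The 14 genes were picked by their difference in these same libraries, and the share over all genes was not counted. Nothing is therefore read from the 7. Dixon's test for a library far from its group was not applied, since no group has 4 libraries.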

How the results depend on the processing

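Of 1584 recomputed log2 fold changes of single genes, 1518 kept direction and side of the threshold, 44 lost a call, 13 gained one and 9 turned direction. They cover only the ligands, receptors, ID genes and inhibitory SMADs described above and the other pathway genes named for each comparison. The named genes were picked for the lowest adjusted p in these same libraries, which favours their keeping a call. The 1518 are therefore not read as a measure of how results for all genes hold. Scaling by library totals alone shifted the median gene by -0.16 (GSK715, HCT116), 0.12 (WiDr), 0.34 (between lines) and -0.20 (between read types), and 29 pathway genes differed between lines, against 19. Leaving out single libraries gave 21 to 27 pathway genes for GSK025, 21 to 24 for GSK715 in HCT116, 18 to 21 for GSK715 over GSK025, 22 to 23 for WiDr, 0 to 1 for ONT, 19 to 21 between lines and 3 to 8 between read types.

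Directions turned with library totals alone for ID2 with GSK715 in HCT116 (-0.0035), ID1 between inhibitors (-0.045) and BMPR1A between read types (-0.074). With single libraries left out, values ranged from -0.13 to 0.022 for BMPR1A between inhibitors (above 0 without the first GSK715 library), from -0.43 to 0.14 for BMPR2 in ONT (0.0015 without the second DMSO library, 0.14 without the first GSK715 library), and between read types from -0.51 to 0.075 for BMPR2 (without the first ONT GSK715 library), -0.061 to 0.28 for BMPR1A and -1.30 to 1.17 for BMP7 (both below 0 without the second ONT GSK715 library). None of these had passed the threshold except ID2. BMPR2 and ID2 with GSK715 in HCT116 and BMP7 and ID3 in WiDr, counted past the threshold, were not under several alternatives, and the cause was not tested. ONT called 1399 of all genes, against 251 with no filter and 274 with DESeq2; at its depth BMP7 and ID3 did not reach the filter.

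Replicate numbers did not pair the libraries: same-numbered libraries correlated at -0.15 to 0.11 in their deviations. With the replicate number as a block, 26, 23, 21 and 24 pathway genes passed for GSK025, GSK715 in HCT116, GSK715 over GSK025 and WiDr, 0 in ONT, 19 between lines and 7 between read types. The block ended the call of SMAD6 between read types (adjusted p = 0.0619). In the counts against DMSO it took out BMPR2 with GSK715 in HCT116 and added BMP4 in ONT.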

Other observations

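ID proteins bind the partners of bHLH differentiation factors, the E proteins such as TCF12. Of the 6 E proteins and bHLH factors tested in WiDr short reads, 5 changed with GSK715 (65.8% of all genes passed). A link to the ID genes was not tested. ASCL2, a bHLH factor of intestinal stem cells, rose to 16.8 to 17.6 CPM with GSK715 against 1.199 to 2.26 CPM with DMSO (log2 fold change 3.21, SE 0.20, edgeR adjusted p = 3.26e-07), and in ONT it rose by 0.89 (SE 0.17, adjusted p = 0.0003). ATOH1 and NEUROG3, which direct secretory and endocrine cells, rose by 1.204 (SE 0.29) and 1.97 (SE 0.29) at means of 1.65 and 1.00 CPM, and TCF4, the E protein and not the Wnt effector TCF7L2, rose by 2.07 (SE 0.30). TCF12, an E protein that IDs bind, fell to 67.1 to 74.5 CPM with GSK715 against 170 to 185 CPM with DMSO in WiDr (-1.34, SE 0.047), but had 31.1 and 41.9 CPM with GSK715 against 34.0 and 36.0 CPM with DMSO in ONT. In HCT116, ASCL2 and NEUROG3 were at 0 in every library, and TCF12 fell by 0.45 with GSK025 and 0.44 with GSK715.

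In the TGF-beta arm, which shares SMAD4 and SMAD7 with the BMP arm, 8 of 10 genes changed with GSK715 in HCT116 (46.4% of all genes) and 7 of 10 in WiDr short reads (65.8%). PMEPA1, a target that feeds back on the pathway, had 11.9 to 15.4 CPM with GSK715 against 3.99 to 5.36 CPM with DMSO in HCT116 (log2 fold change 1.49, SE 0.19), and 42.6 to 43.0 CPM with GSK715 against 192 to 197 CPM with DMSO in WiDr (-2.18, SE 0.030). The difference between lines was -3.74 (SE 0.14, edgeR adjusted p = 1.32e-10). The ligand TGFB2, with 26.6% of its exon bases shared with another gene, fell by 3.32 (SE 0.23) in WiDr.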
